A study of Mus musculus with 2 samples.

Results

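The genes of the platelet-derived growth factor (PDGF) family, 4 ligand genes and 2 receptor genes, were compared between cystic and control mouse kidney RNA. The members were all probe sets whose annotated symbol is Pdgfa, Pdgfb, Pdgfc, Pdgfd, Pdgfra or Pdgfrb. A probe set is a group of short oligonucleotides on the array that together read 1 transcript. This gave 14 probe sets of 45037, for 6 genes of 18193 named on the array, and all 6 genes were measured.

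The cystic kidney came from inv/inv, inv-deltaC::GFP mice, homozygous for the inv mutation of Invs, the gene of the ciliary protein inversin, and a model of nephronophthisis type 2. The control kidney came from +/+,inv-deltaC::GFP mice, with normal Invs alleles. Both kinds of mice carried the same transgene, a green fluorescent protein fusion of inversin that lacks the C-terminus, so the control is a transgenic and not a plain wild-type kidney. Neither the promoter of the transgene nor the number of animals behind each RNA is given in the sources used here. Both groups were 4 weeks old by the series design, and the labels of the cystic array give 28 days. Total RNA of each kidney type was read on 1 Affymetrix array, so no test between the kidneys was possible and the number of arrays limits the precision.

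The signal is a linear MAS5 intensity. Signals under an array's own median, 61.9 for the cystic and 55.4 for the control array, were treated as too low to read, and this limit is called the floor. A difference is the log2 ratio, cystic minus control, and "2-fold higher" or "2-fold lower" refers to a fixed limit and not to a test. The 2% trimmed mean signals were 181 for the cystic and 178 for the control array. The brightest Invs probe set read 15.9, under the floor, in the cystic and 118 in the control kidney. The other Invs probe sets read 22.1 and 54.2 in the cystic and 36 and 5.4 in the control kidney, under the floor on both arrays. All probe sets of Tyr, a pigmentation gene carried by the inv insertion, were under the floor on both arrays. The cystic array is labelled female, but its 3 Xist probe sets read 57.4, 2.3 and 14.2, all under the floor, against 387, 281.6 and 34.6 on the control array. Of the Y-linked genes, Uty read 197.6 in the cystic and 205.7 in the control kidney, Eif2s3y 141.5 and 131.7 and Kdm5d 194.2 and 151.5 (109.7 and 65.9 at its second probe set) in the same order, above the floor on both. The cystic array therefore goes against its sex label. The control array has no sex label, and both Xist (387 and 281.6) and the Y-linked genes were above its floor. The sex of the animals and the cystic state cannot be told apart in any value below.

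PDGF ligands are secreted dimers of the A, B, C and D chains that bind 2 receptor tyrosine kinases. The alpha receptor, from Pdgfra, binds the A, B and C chains, and the beta receptor, from Pdgfrb, binds the B and D chains. In the kidney the receptors are known mainly from mesangial cells, pericytes, vascular smooth muscle and interstitial fibroblasts, and the B chain is known for recruiting mesangial cells and pericytes to vessels.

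In the cystic kidney both receptors and the ligands Pdgfb and Pdgfd were past 2-fold higher, while the brightest probe sets of the ligands Pdgfa and Pdgfc had ratios near 0. Taking the brightest probe set of each gene, 4 of 6 members were at least 2-fold higher and 0 were at least 2-fold lower. Among all 12015 measured genes, 7.06% were at least 2-fold higher and 3.78% at least 2-fold lower. The median log2 ratio was 1.39 over the 6 members and 0.09 over all measured genes. When each array was centred on its median signal, the median of all genes was shifted by -0.16 and the share of higher genes among all past 2-fold was 47.5%, against 65.1% with the deposited scaling, and the same 4 members stayed past 2-fold. Over single probe sets, 12 of 14 were measured, of which 7 were at least 2-fold higher and 0 at least 2-fold lower, beside 6% and 3.21% of all measured probe sets. The signal of every probe set on both arrays is shown in the plot of signals by probe set.

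**Figure D1:**
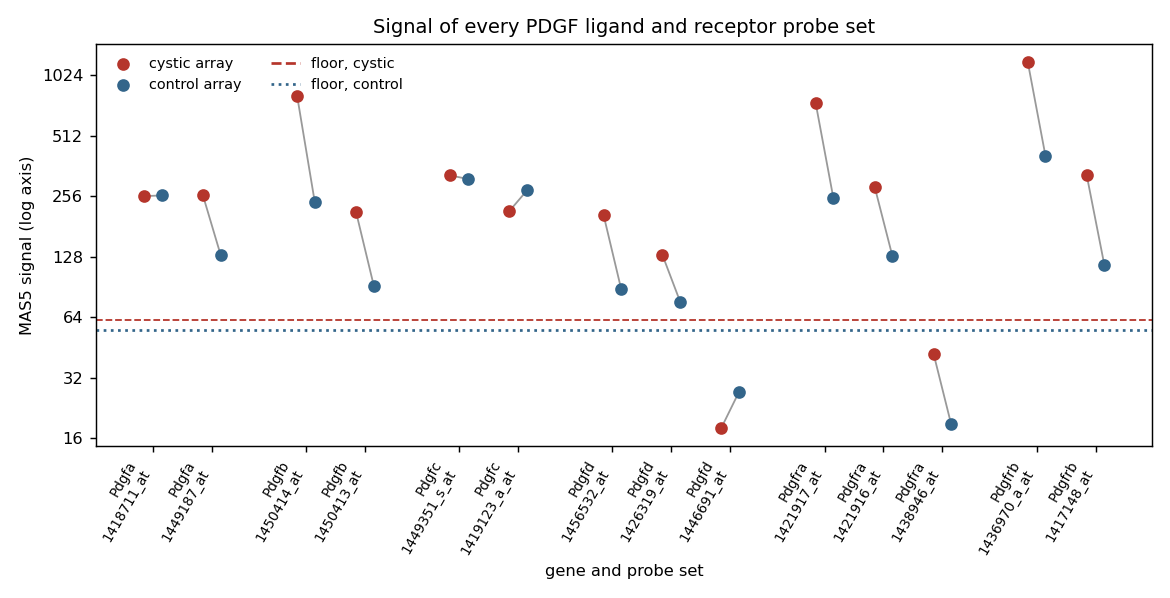
MAS5 signal (log axis) of the 14 probe sets of the PDGF genes, with the cystic array left of the control array in each pair and each array's floor as a line. The cystic signal is the higher one in all Pdgfb, Pdgfra and Pdgfrb probe sets, while Pdgfa and Pdgfc each have a probe set with nearly equal signals, and 1 probe set each of Pdgfd and Pdgfra lies under both floors.

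Pdgfb encodes the B chain, the ligand that binds both receptors. Its probe set 1450414_at read 808.2 in the cystic and 239 in the control kidney, which is 3.38-fold higher (log2 ratio 1.76). The second Pdgfb probe set, 1450413_at, read 213.6 and 92 in the same order, 2.32-fold higher (log2 ratio 1.22). Both probe sets were past 2-fold in the same direction and differed from each other by 0.54 in log2 ratio. Of the 6 members Pdgfb had the highest ratio, with rank 207 from the top among the 12015 measured genes.

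Pdgfd encodes the D chain, a ligand of the beta receptor that is secreted in a latent form. Probe set 1456532_at read 206.6 in the cystic and 88.1 in the control kidney, 2.35-fold higher (log2 ratio 1.23, rank 537 of 12015). Probe set 1426319_at read 130.4 and 76.4 in the same order, 1.71-fold higher (log2 ratio 0.77), so only 1 of the 2 measured Pdgfd probe sets passed the limit. The third, 1446691_at, read 18 in the cystic and 27.2 in the control kidney, under the floor on both arrays, and gives no ratio. With 50 added to every signal and no floor, the Pdgfd log2 ratio was 0.89, under 2-fold, and with the median over its probe sets it lay just past the limit.

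Pdgfa encodes the A chain, a ligand of the alpha receptor, and its probe sets disagreed. Probe set 1418711_at read 256.3 in the cystic and 258.6 in the control kidney, a log2 ratio of -0.01. Probe set 1449187_at read 259.4 and 131.2 in the same order, 1.98-fold higher (log2 ratio 0.98), just under the limit. The cystic signals of these probe sets were nearly equal and the control signals were not. Their log2 ratios differed by 0.996, although the platform annotation lists both under the same sequence accession, which does not show that they read the same stretch. A difference at least this large was found in 76 (2.65%) of 2865 genes with 2 probe sets above the floor on both arrays, where the median difference was 0.24. Among 1825 pairs of probe sets of a gene that share an accession, 37 (2.03%) differed as much. No direction is therefore given for Pdgfa.

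Pdgfc encodes the C chain, a latent ligand of the alpha receptor. Probe set 1449351_s_at read 325 in the cystic and 312.2 in the control kidney, a log2 ratio of 0.06. Probe set 1419123_a_at read 215.8 and 273.7 in the same order, a log2 ratio of -0.34. Neither passed 2-fold, and the ratio of the brighter one went below 0 under median centring (-0.10), loess (-0.03) and quantile normalization (-0.05), so Pdgfc has no direction here.

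Pdgfra, the alpha receptor, was read by 3 probe sets. Probe set 1421917_at read 744.3 in the cystic and 250.9 in the control kidney, 2.97-fold higher (log2 ratio 1.57, rank 279). Probe set 1421916_at read 286 and 129.6 in the same order, 2.21-fold higher (log2 ratio 1.14). The third, 1438946_at, read 42.1 in the cystic and 18.7 in the control kidney, under both floors. Both measured probe sets passed the limit, and they differed by 0.43 in log2 ratio.

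Pdgfrb, the beta receptor, was read by 2 probe sets with closely matching ratios. Probe set 1436970_a_at read 1190.9 in the cystic and 406.2 in the control kidney, 2.93-fold higher (log2 ratio 1.55, rank 289). Probe set 1417148_at read 325.3 and 116 in the same order, 2.80-fold higher (log2 ratio 1.49). The difference between them was 0.06, the smallest among the 6 members.

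By role, 4 of 4 measured receptor probe sets were at least 2-fold higher, with a median log2 ratio of 1.52, and 3 of 8 measured ligand probe sets, with a median of 0.88. Between probe sets that read the same gene, the log2 ratios varied with a pooled SD of 0.29 (4694 genes). This is a spread within the same RNA, of a source that was not tested, and not an error between kidneys. The gene ratios of Pdgfb, Pdgfra and Pdgfrb lay within 0.21 of each other, which is less than that SD, so their order is not read as a difference. The position of the 6 genes among all measured genes is shown in the histogram of log2 ratios.

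**Figure D2:**
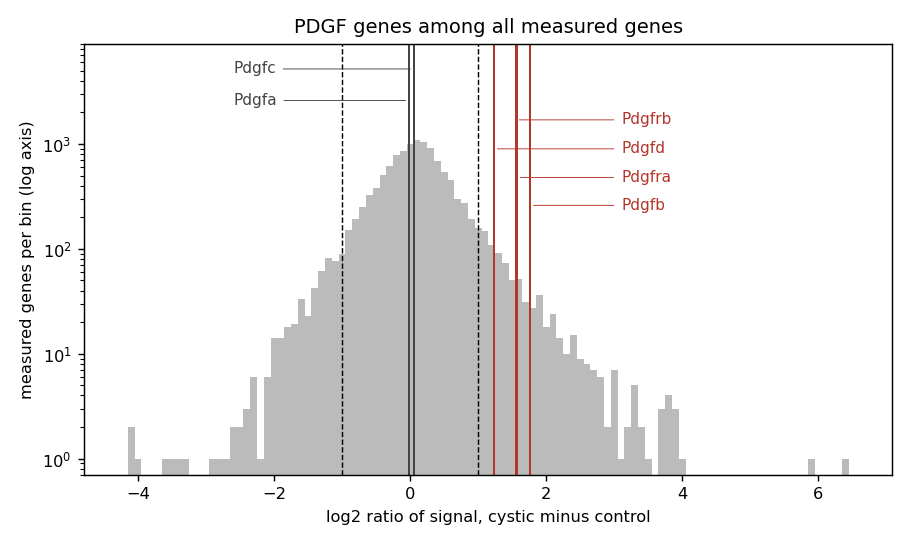
Histogram of the log2 ratio, cystic minus control, of the 12015 measured genes in bins of 0.1 (counts on a log axis), with a line for each PDGF gene at its brightest probe set and dashed lines at 2-fold. Pdgfb, Pdgfra, Pdgfrb and Pdgfd lie right of the upper limit, and Pdgfa and Pdgfc near 0.

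Promoter windows were available for 4 of the 6 members, and 3 are shown: Pdgfra and Pdgfd, which were past 2-fold, and Pdgfc, which was not. They are RefSeq sequences of build GRCm38.p6, on the + strand, and end at the base before a transcript start. The Pdgfra window is chr5:75152001-75152250 and lies inside the span of the gene, ahead of an inner start site. The Pdgfd window is chr9:6168236-6168362, shortened to the bases before the outermost start, and the Pdgfc window is chr3:81036166-81036415. Capitals mark a match to 1 of 5 motifs searched on both strands.
Pdgfra: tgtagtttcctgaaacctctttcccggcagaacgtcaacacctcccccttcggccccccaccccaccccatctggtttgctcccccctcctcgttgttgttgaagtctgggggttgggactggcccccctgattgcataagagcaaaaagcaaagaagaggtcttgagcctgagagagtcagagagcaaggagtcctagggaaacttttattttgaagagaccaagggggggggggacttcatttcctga
Pdgfd: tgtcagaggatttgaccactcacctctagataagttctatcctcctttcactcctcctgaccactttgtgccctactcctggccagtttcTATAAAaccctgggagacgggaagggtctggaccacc
Pdgfc: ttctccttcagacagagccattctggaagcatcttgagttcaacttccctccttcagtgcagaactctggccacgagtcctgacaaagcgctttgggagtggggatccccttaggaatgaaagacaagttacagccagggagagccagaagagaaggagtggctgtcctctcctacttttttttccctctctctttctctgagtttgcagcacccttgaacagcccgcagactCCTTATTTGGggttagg
The motifs were TATAAA (the TATA box), CCAAT (the CCAAT box), GGGCGG (the GC box), TGANTCA (the AP-1 motif) and the CArG box, the motif of serum response factor. The Pdgfd window holds TATAAA, starting 37 bases before the outermost start, as do 12.4% of 32851 windows of 250 bases in the table. The Pdgfc window holds a CArG box, starting 17 bases before the start site, as do 1.47% of all windows. None of the 5 motifs was matched in the Pdgfra window. The 2 Pdgfa windows, not printed, hold only GGGCGG, with 1 and 2 matches, a motif found in 32.7% of windows. A match is a description of these letters. The 3 printed windows hold at most 1 match each, so whether they share a motif is not read as a difference between genes.

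Genes of proteins that act on the ligands before they reach a receptor were read from 1 list. Of 8 listed genes for ligand processing and release 7 were measured, with a median log2 ratio of -0.15. Of these, 0 were at least 2-fold higher and 1 at least 2-fold lower, beside 7.06% and 3.78% of all measured genes. The lower one was Pcsk6, a proprotein convertase of the group that cleaves the A and B chains, with a signal of 120.1 in the cystic and 297.7 in the control kidney (log2 ratio -1.31). The related convertases Pcsk5 and Pcsk7 had log2 ratios of -0.71 (0.083 at the second Pcsk5 probe set) and -0.17. Plat, the tissue plasminogen activator that releases active PDGF-C, had 0.92 in log2 ratio (0.14 at its second probe set).

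Proteins that bind the ligands or receptors outside the cell had 6 of 7 listed genes measured, with a median log2 ratio of 0.61. At least 2-fold higher were 2 of them and 0 were lower. Lrp1, an endocytic receptor that associates with the beta receptor, read 552.8 in the cystic and 186.9 in the control kidney (log2 ratio 1.56). Sparc, a matrix protein that binds the B chain, read 7287.8 and 2494.6 in the same order (1.55, and 1.08 at its second probe set). Pdgfrl, a receptor-like gene named for its resemblance to the PDGF receptors, read 104.2 in the cystic kidney and 26.3, under the floor, in the control kidney, and was at least 1.88-fold higher. Slc9a3r1, a scaffold that binds the tail of the receptors, had -0.61 and -0.58 at its second probe set.

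Inside the cell, the adaptors and effectors of the receptors were read from 1 list. Of 30 listed genes 25 were measured, 1 was at least 2-fold higher and 0 lower, which is 4% against the 7.06% of all measured genes, with a median log2 ratio of 0.26. The 1 was Stat3, a transcription factor activated by cytokine and growth factor receptors, with 1631.8 in the cystic and 617.5 in the control kidney (1.40, and 1.57 at its second probe set). The kinase Akt1 and the adaptor Grb10 had 0.82 and 0.78 (0.60 and 0.43 at their second probe sets), and Stat5a had -0.55. With 25 measured genes, the share past 2-fold is not read as lower than that of all genes.

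Of 13 listed phosphatases, ubiquitin ligases and other inhibitors that act on the receptors or their pathway, 12 were measured, 3 were at least 2-fold higher and 0 lower, with a median of 0.47. Ptpn12, a phosphatase that acts on the beta receptor, read 969.1 in the cystic and 426 in the control kidney (1.19, and 0.93 at its second probe set). Ptpn1, also a receptor phosphatase, had 1.02, with 0.33 at its second probe set. Socs3, an inhibitor induced by cytokines, read 766.1 in the cystic kidney and 28.3, under the floor, in the control kidney, and was at least 13.8-fold higher. The low-molecular-weight phosphatase gene Acp1 had -0.16.

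Of 20 listed transcripts known to be induced by PDGF in cultured fibroblasts 16 were measured, 9 were at least 2-fold higher and 0 lower, and their median log2 ratio was 1.24. The early response transcription factor gene Myc read 518 in the cystic and 67 in the control kidney (2.95), Fos 512.4 and 79.1 (2.70), and Egr1 1577.6 and 298.5 (2.40), each in that order. Odc1, an enzyme of polyamine synthesis, had -0.83, and -1.13 at its second probe set. Many stimuli other than PDGF induce these transcripts, so the list is not specific to the family, and what induced them was not tested. The median fell to 0.84 with 50 added to every signal.

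Related growth factor families gave a comparison. Of 7 genes of the KIT and FMS receptors, which belong to the same receptor class, and their ligands, 6 were measured. The median was 0.84, resting in part on Flt3, whose control signal was under the floor, and 2 were at least 2-fold higher. They were the ligands Il34 (281.6 in the cystic and 56.3 in the control kidney) and Csf1 (459 and 125.6, in the same order), with log2 ratios of 2.32 and 1.87 (1.45 at the second Csf1 probe set). Their receptor Csf1r had 0.98, and 1.14 at its second probe set, and Kit read 246.7 in the cystic and 245.2 in the control kidney. In the VEGF family, whose ligands share the fold of the PDGF chains, 8 of 9 genes were measured and 2 were at least 2-fold higher, with a median of 0.16. They were Vegfd (1.30, and 0.99 at its second probe set) and Vegfc (1.09, and at least 1.97-fold higher at its second), ligands of lymphatic endothelium, while the co-receptor Nrp2 had 0.86 (1.01 at its second) and Vegfb -0.66. With so few genes and 1 array per group, whether the families differ was not tested.

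Markers of the cells known to carry PDGF receptors were read from 2 lists, and most fibroblast markers but fewer of the pericyte, mesangial and smooth muscle markers were past 2-fold. Of 13 measured fibroblast and myofibroblast markers out of 14, 12 were at least 2-fold higher, with a median log2 ratio of 2.12, and their summed signal was 33338.6 in the cystic and 7469.9 in the control kidney. They were led by Tagln (3.81), Col1a1 (2.85, and 1.57 at its second probe set) and Vim (2.46), and the lowest was Cd34 (0.78). Of these 13 markers, 10 had a higher ratio than Pdgfra and Pdgfrb. Among pericyte, mesangial and vascular smooth muscle markers 10 of 13 were measured and 4 were at least 2-fold higher, with a median of 0.61 and a summed signal of 3917.1 in the cystic and 2242.8 in the control kidney. Mcam was at least 5.33-fold higher, Rgs5 had 1.26 (1.46 at its second probe set), Notch3 had 1.14 and Itga8, a mesangial integrin, -0.07. Among the smooth muscle genes of that list, chosen here after their values were seen, Smtn read 726.6 in the cystic and 509 in the control kidney (0.51), and Des read 65.7 in the cystic and 18.2, under the floor, in the control kidney. Myh11 read 3.2 in the cystic and 3.8 in the control kidney and Cnn1 37.4 and 9.8 in the same order, all under the floor. Acta2 and Tagln, which smooth muscle also expresses, stand in the fibroblast list with 2.42 and 3.81. In RNA of a whole kidney, more cells of a type and more RNA per cell cannot be told apart, and the part of these cells in the receptor values was not tested.

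Cells known to make the B chain were also read. Of 15 endothelial markers 14 were measured and 0 were at least 2-fold higher or lower, beside 7.06% and 3.78% of all measured genes. Their median was 0.21 and their summed signal 5676.3 in the cystic and 4970.9 in the control kidney. Eng, Pecam1 and Icam2 had the highest ratios, 0.94 (0.52 at the second Eng probe set), 0.43 and 0.42, and Esam the lowest, -0.21. None of the 14 reached the ratio of Pdgfb. Only 1.71% of all measured genes exceeded that ratio, so this is not read as a trait of endothelial markers. All 14 macrophage markers were measured, 12 were at least 2-fold higher and 11 had a higher ratio than Pdgfb, with a median of 2.50 and a summed signal of 12750.3 in the cystic and 2517 in the control kidney. Lyz2, C1qc and C1qa led them with 4.00, 3.83 and 3.48, and Itgam was at least 1.41-fold higher. Of 6 platelet markers only Pf4, with 2.12, and Itga2b, with -0.63, were measured, and Ppbp and Gp9 were under both floors. The part of these cells in the Pdgfb value was not tested.

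Epithelial markers were mostly below 0 in log2 ratio. Of 10 proximal tubule markers 7 were at least 2-fold lower and 0 higher, with a median of -1.19, led by Slc7a13 (-3.96, and at least 7.75-fold lower at its second probe set), Slc22a6 (-2.06) and Slc22a8 (-1.83, and -1.09 at its second), and Kap had -0.21 (-0.67 at its second). Markers of the loop, distal tubule and collecting duct had 3 of 11 at least 2-fold lower and 0 higher, with a median of -0.32. They were Slc4a1 (-2.14), Calb1 (-2.03, and -2.97 at its second probe set) and Pvalb (-1.97), and Scnn1g had 0.94. Of 5 measured podocyte markers 1 was at least 2-fold lower, Nphs1 with -1.07, the median was -0.60, Podxl had -0.85 (-0.13 at its second probe set), Ptpro -0.60 and Synpo 0.65. The summed signal of the proximal tubule markers was 28228.1 in the cystic and 55351.6 in the control kidney. All lists are set side by side in the plot of log2 ratios by gene list.

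**Figure D3:**
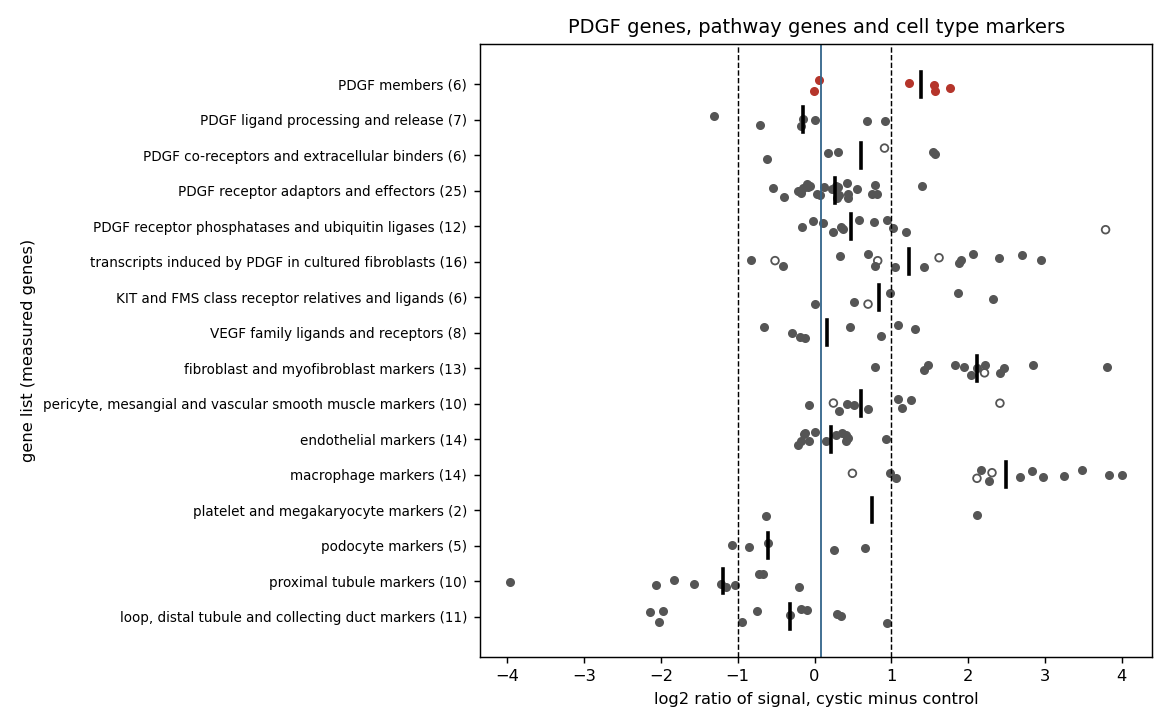
Log2 ratio, cystic minus control, of each measured gene (points) in the PDGF family, its pathway lists, related families and cell type marker lists, with the number of measured genes in brackets. Black bars are list medians, open points are bounds against a floor, dashed lines mark 2-fold and the blue line is the median of all measured genes (0.09); fibroblast and macrophage markers lie mostly right of 2-fold, endothelial markers between the limits.

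Across 10 other processing choices, Pdgfb, Pdgfra and Pdgfrb were at least 2-fold higher in 30 of 30 values, with log2 ratios of 1.36 to 1.76. Pdgfd was past the limit in 9 of 10. In these genes the other floors, no floor and leaving out shared probe sets could not move the value. Their brightest probe sets lay above each floor and are not marked as shared. The values of all 6 genes are shown in the plot of processing choices.

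**Figure D4:**
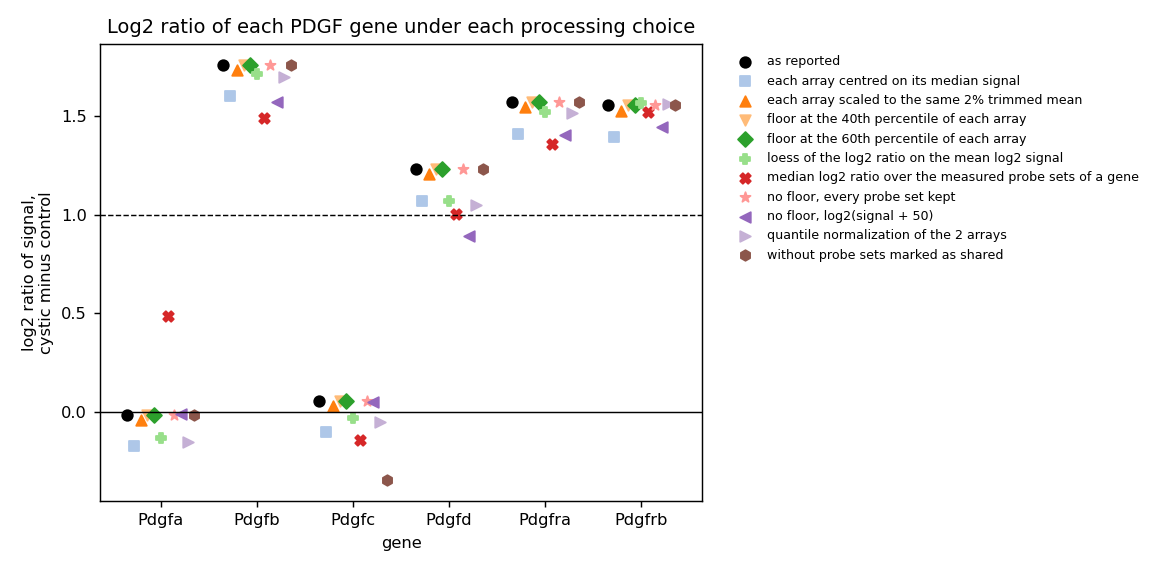
Log2 ratio, cystic minus control, of each PDGF gene as reported (black circles) and under 10 other processing choices, with the dashed line at 2-fold. Pdgfb, Pdgfra and Pdgfrb stay above the line under every choice, Pdgfd drops to 0.89 under 1 of them, and Pdgfa and Pdgfc stay below it.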

How the data were processed

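Kidney RNA of 1 cystic and 1 control array was analysed. Per the labels, the authors made the deposited values, a linear signal intensity per probe set, with MAS5; its version, its scaling target and detection calls are not given in the sources used here. Of 45101 probe sets, 64 control probe sets were left out. Symbols came from the platform annotation, updated through a RefSeq gene table of GRCm38.p6, which also gave the gene spans used for the promoter windows. By these symbols 34945 probe sets named 1 gene, 932 several and 9160 none. The deposited scaling was kept. A probe set under the floor, each array's median, on both arrays was not measured; under it on 1 array, the low signal was set to the floor value and the fold is a bound ("at least"). A gene took the value of its brightest probe set by mean log2 signal, so 12015 of 18193 genes were measured, and its second brightest is given where the 2 differed by more than 0.29 or in its call.

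With 1 array per group no test, p-value or error between kidneys was possible, and calls are at 2-fold. The steps were tested on simulated data. Members and the 17 other lists were chosen with earlier results of these data known; named genes are the 3 furthest in the direction of a list's median and 1 in the other, and all in lists of under 5 measured. No gene is named as alike in pattern, since 2 arrays rank none. Tools were Python 3.11.15, pandas 2.3.3 and statsmodels 0.14.6 (loess).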

Additional observations from a re-analysis of the deposited data

How the results depend on the processing

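Each value was recomputed with 4 other scalings, 2 other floors, no floor, 50 added to each signal, without probe sets marked as shared and with the median over probe sets. Of 208 recomputed values, 196 stayed within the spread between probe sets (0.29) or, for counts, within 1.5 times, and none with at least a 2-fold difference changed sign. Many of these could not move, so the 196 are not read as a measure of stability. Differences between probe sets of a gene could not move when each array was scaled by a single factor. With no floor they could not move either, since only probe sets measured in the main run were compared. The member ratios were fixed under the other floors and with no floor. With no floor, 2105 genes were at least 2-fold higher and 1691 lower, since low signals then enter. The Pdgfd log2 ratio was 0.89 with 50 added, which left 3 members past 2-fold. Pdgfa had 0.49 with the median over its probe sets, and Pdgfc -0.34 without its shared probe set. With the floor at the 40th percentile 1 more Pdgfra probe set, 1438946_at, entered, and the Pdgfra probe sets then spanned 1.34. Its control signal of 18.7 was raised to that floor, so its ratio there is a bound. From the deposited signals its log2 ratio is 1.17, but both signals lie under the floors used above. Neither the span nor that ratio is therefore read as agreement or disagreement between probe sets. The Pdgfd probe set 1446691_at, also under both floors, has -0.60 from its deposited signals. The median of the KIT and FMS list was 1.15 with the floor at the 40th percentile and 1.22 with no floor. That of the co-receptors and binders was 0.92 and 0.28 with the floor at the 40th and 60th percentiles and 0.30 with 50 added. That of PDGF-induced transcripts was 0.84 with 50 added. The reported medians of the KIT and FMS list and of the co-receptors and binders rest in part on bounds, from Flt3 and Pdgfrl. So do those of the PDGF-induced transcripts, from Ccl2, of the pericyte, mesangial and smooth muscle markers, from Des, and of the macrophage markers, from Fcgr3. No paired analysis was possible because each group has 1 array. Signal over background limits Pdgfd, whose control signals of 88.1 and 76.4 lie close to the floor of 55.4.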
